A study of Homo sapiens with 3 samples.

Results

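The cells described here are the 10% of each library with the largest share of transcripts from 5 immediate early genes, JUN, FOS, EGR1, ATF3 and IER2 (IEG-high cells). The study used FaDu, an established human cell line from a squamous carcinoma of the hypopharynx, and a subline selected for resistance to TPF. TPF stands for paclitaxel with cisplatin and 5-fluorouracil, and cinobufotalin, added to it or given alone, is a bufadienolide, one of the steroids of toad venom. There were 3 single-cell RNA libraries, 1 per group: TPF-resistant FaDu cells treated with TPF plus cinobufotalin (called the resistant TPF cinobufotalin library), TPF-resistant FaDu cells treated with TPF (called the resistant TPF library) and FaDu cells treated with cinobufotalin (called the FaDu cinobufotalin library). Every group had thus received at least 1 of the drugs, and the sources used here do not give doses, exposure times or whether the subline is 1 clone. Values of the 3 libraries are given in this order throughout: resistant TPF cinobufotalin, resistant TPF, FaDu cinobufotalin.

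Of 21857 deposited barcodes, 17590 had at least 5000 unique molecular identifiers (UMIs, each a counted transcript) and at most 20% mitochondrial UMIs, 6954, 4657 and 5979 per library. Among these, 1759 were IEG-high cells, 695, 466 and 598 per library, and the other 6259, 4191 and 5381 cells of the same library served for comparison. The share of 10% in each library was fixed by the rule, which used the readouts themselves. Differences between IEG-high and other cells are therefore descriptions without a test, and each of the 3 groups had 1 library, so no test between groups could be made either. Intervals are 95% Clopper-Pearson intervals and cover counting error only, since cells of 1 library are not replicates. The lowest IEG-high cell had 2852, 3120 and 1340 CPM (UMIs of the 5 genes, scaled to CPM in the cell) and the next cell outside had 2850.3, 3119.0 and 1339, so the limit was placed within a continuous range.

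Immediate early genes are induced within minutes of a growth factor, cytokine or stress signal, without new protein synthesis. JUN and FOS encode the subunits of the AP-1 transcription factor, EGR1 is a zinc finger transcription factor induced by ERK signalling, ATF3 is a stress-induced factor of the ATF/CREB family, and IER2 is a small nuclear protein. Their mRNAs are short-lived, and many of the induced products, such as dual-specificity phosphatases and the mRNA-destabilising protein ZFP36, shut the response down again. Per the labels, cells passed through an erythrocyte lysis step in the cold and were kept on ice until loading, within 30 min.

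IEG-high cells were somewhat shallower than other cells, with a median of 17034, 27581 and 23013 UMIs, against 18698, 28437 and 24932 UMIs in other cells. The lowest decile of cells by UMIs held 15.9%, 17.2% and 14.0% IEG-high cells, and the highest decile 4.89%, 10.9% and 5.02%. More genes were nevertheless detected in them, a median of 4798, 6048.5 and 4885 genes in IEG-high cells, against 4746, 5868 and 4801 genes in other cells. Mitochondrial UMIs made up a median of 3.46%, 3.50% and 3.89% in IEG-high cells, against 3.71%, 4.11% and 3.80% in other cells. Ribosomal protein genes took 12.3%, 11.7% and 16.5% of UMIs in IEG-high cells, against 14.3%, 13.7% and 18.7% in other cells. MALAT1, a long noncoding RNA retained in the nucleus, took a median of 1.03%, 1.05% and 0.211% of UMIs in IEG-high cells, against 0.708%, 0.786% and 0.0784% in other cells. The FaDu cinobufotalin library stood apart in this low MALAT1 share. MALAT1 levels by decile of the rule value are given below and did not rise steadily. The part that depth and the nuclear share have in the differences below was not tested; values with cells matched on depth or on MALAT1 are given below for the count of higher genes, the 12 highest genes, the phases and 3 of the gene lists. Between any pair of libraries, 9 to 13 cell barcodes were shared.

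All 11 squamous epithelial markers were measured, with a summed level of 4526, 5462 and 8307 CPM (UMIs summed over cells and scaled to counts per 1e+06 UMIs) in IEG-high cells, against 4794, 6032 and 7615 CPM in other cells. None of the 10 fibroblast or 14 immune markers reached a mean of 5 CPM over the libraries. PTPRC, the pan-leukocyte marker, and COL1A2 and COL3A1, collagens of fibroblasts, had no UMI in IEG-high cells of any library. Of 9 endothelial markers ERG alone reached 5 CPM, at 24.5, 13.6 and 10.9 CPM in IEG-high cells, against 24.8, 20.8 and 9.37 CPM in other cells. Of 6 erythroid markers only HBA1, an alpha globin gene, did, at 26.7, 38.1 and 23.4 CPM in IEG-high cells, against 7.83, 9.38 and 4.000 CPM in other cells. HBA1 was thus higher in IEG-high cells in all 3 libraries, while HBA2, HBD and ALAS2 had no UMI in IEG-high cells of any library and HBB had 0, 1 and 0. HBA1 and HBA2 are nearly identical, and the sources used here do not say how reads were divided between them.

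The 5 genes that chose the cells were high together. By the rule, JUN stood at 1180.2, 1398 and 493 CPM in IEG-high cells, against 252, 277 and 57.5 CPM in other cells. FOS stood at 1403, 1463 and 782 CPM in IEG-high cells, against 281, 319 and 112 CPM in other cells. EGR1, ATF3 and IER2 were each between 2.94 and 4.64 times as high in IEG-high cells as in other cells. These values follow from the choice. A reading that the choice did not use is each gene's level in the top 10% chosen by the other 4 genes. Measured so, JUN had 1048, 1258 and 453 CPM in the chosen cells, against 264, 290.4 and 61.03 CPM in the rest, a log2 ratio of 1.99, 2.12 and 2.89. FOS had 1235, 1328 and 682 CPM in the chosen cells, against 299, 334 and 122 CPM in the rest (2.04, 1.99 and 2.49). EGR1 had 413, 284 and 214 CPM in the chosen cells, against 128, 100.1 and 67.4 CPM in the rest (1.69, 1.503 and 1.67). ATF3 gave log2 ratios of 1.37, 1.43 and 2.01 and IER2 of 1.59, 1.74 and 1.53. All 15 counting intervals lay above 1 on the log2 scale, and they cover counting error only. The cells chosen so were largely the IEG-high cells themselves. Of the IEG-high cells, from 84.0% (without FOS, resistant TPF cinobufotalin library) to 95.7% (without EGR1, resistant TPF library) were among them. These readings are therefore descriptions and no independent test of the rule. When cells were chosen on a random 50% of each cell's UMIs and all 5 genes measured on the rest, the log2 ratios were between 1.45 and 2.95, beside 1.55 to 3.098 by the rule.

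**Figure D1:**
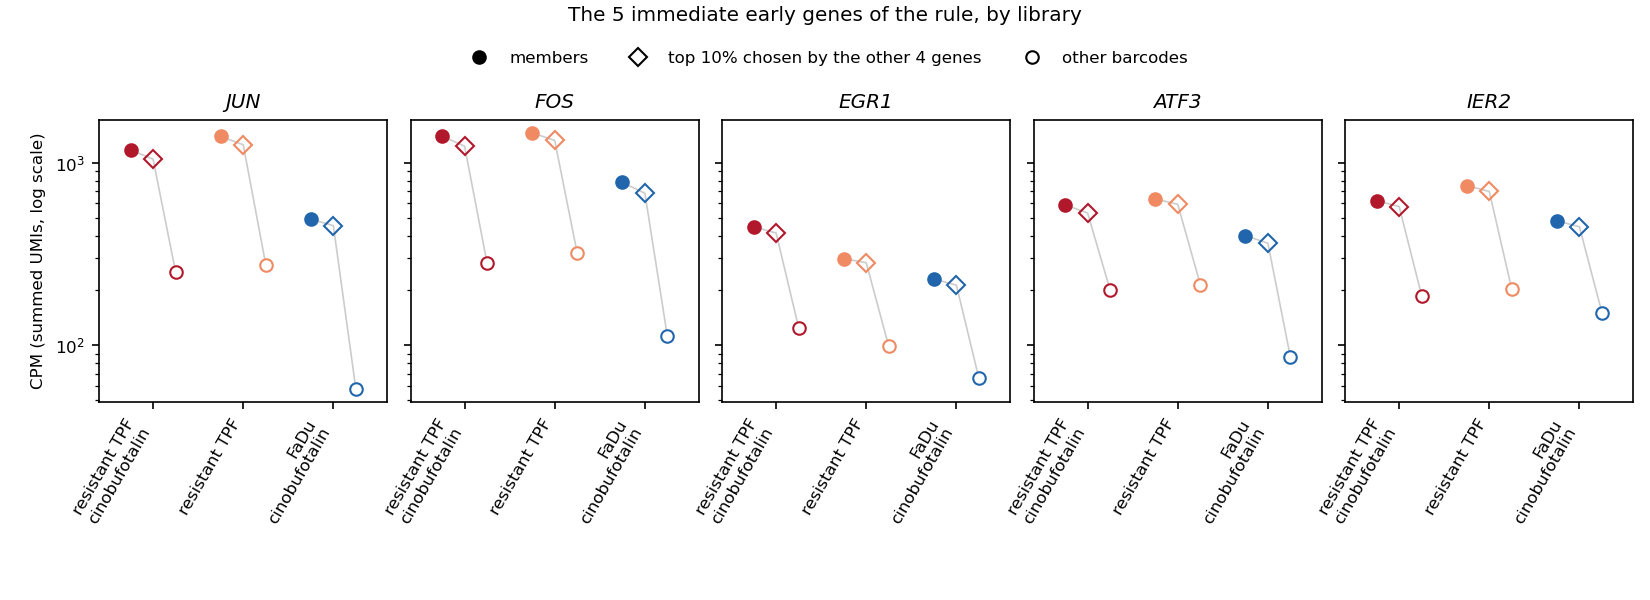
Level of each of the 5 genes (CPM from summed UMIs, log axis) in each library. Filled circles are IEG-high cells, open diamonds the top 10% of cells chosen by the other 4 genes, and open circles the other cells of the library. Each gene keeps most of its elevation when it takes no part in choosing the cells; in the FaDu cinobufotalin library JUN is at 453 CPM in such cells.

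JUN lies on hg38 at chr1:58780788-58784327, FOS at chr14:75278774-75282230, EGR1 at chr5:138465490-138469315, ATF3 at chr1:212565334-212620777 and IER2 at chr19:13150415-13154908. The 250 bases before the RefSeq start site (GRCh38.p14) are shown for JUN (chr1:58784048-58784297, minus strand), FOS (chr14:75278578-75278827, plus strand) and EGR1 (chr5:138465229-138465478, plus strand). These 3 were picked because their promoters hold at least 1 of the elements marked below, so they do not stand for the rule genes as a set. The promoter of IER2 was searched too and held none of the elements, and ATF3 was not in the RefSeq table. Capitals mark CArG boxes, which bind serum response factor, and the cAMP and AP-1 type elements TGACGT and TGACATCA, searched on both strands.
JUN: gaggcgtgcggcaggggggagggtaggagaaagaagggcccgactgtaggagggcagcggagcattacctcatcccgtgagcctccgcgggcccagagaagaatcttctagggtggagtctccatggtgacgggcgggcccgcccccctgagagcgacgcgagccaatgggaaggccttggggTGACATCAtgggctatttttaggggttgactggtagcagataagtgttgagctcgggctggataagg
FOS: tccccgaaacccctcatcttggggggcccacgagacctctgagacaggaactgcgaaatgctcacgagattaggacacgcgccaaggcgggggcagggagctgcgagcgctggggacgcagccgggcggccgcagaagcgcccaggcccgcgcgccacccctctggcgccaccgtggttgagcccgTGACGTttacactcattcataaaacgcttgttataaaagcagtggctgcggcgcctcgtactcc
EGR1: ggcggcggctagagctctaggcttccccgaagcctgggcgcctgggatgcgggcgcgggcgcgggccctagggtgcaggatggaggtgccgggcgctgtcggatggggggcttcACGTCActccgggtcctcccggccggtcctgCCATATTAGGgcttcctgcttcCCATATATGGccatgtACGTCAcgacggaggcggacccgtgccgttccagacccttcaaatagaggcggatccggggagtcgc
EGR1 held 2 CArG boxes (starting at -105 and -83 from the start site) and 2 TGACGT matches read on the other strand as ACGTCA (-136 and -67). FOS held 1 TGACGT (-64) and JUN 1 TGACATCA (-67). Of 35114 promoters of the RefSeq table, searched over 250 bases before to 50 after the start, 1.29% held a CArG box, 7.98% TGACGT and 2.61% TGACATCA. None of the 4 rule genes in that table held TGACGTCA (1.85% of all promoters), TGANTCA (7.71%) or a kappaB site (11.3%), which says only that these letters are absent from this window. Promoters of 6 of the 12 genes with the highest ratios, named below, were in the table, and 2 of the 6, GADD45B and ID2, held a kappaB site.

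IEG-high cells differed in how many of the 5 genes they carried at a high level. In 88.3%, 92.5% and 91.8% of them at least 3 of the 5 genes exceeded the 90th percentile of other cells, and in 24.3%, 30.3% and 26.6% all 5 did. FOS gave the most UMIs of the 5 genes in 354, 211 and 320 IEG-high cells and JUN in 279, 212 and 116. EGR1 led in 12, 2 and 18, ATF3 in 30, 18 and 71, and IER2 in 20, 23 and 73, so cells led by ATF3 or IER2 were a larger share of the IEG-high cells in the FaDu cinobufotalin library. JUN contributed 27.8% and 30.7% of the 5 genes' UMIs in IEG-high cells of the resistant TPF cinobufotalin and resistant TPF libraries, and 20.6% in the FaDu cinobufotalin library. IER2 contributed 14.7%, 16.5% and 20.2%. In other cells JUN took 24.1%, 24.9% and 12.2%, IER2 17.9%, 18.2% and 32.0%, and ATF3 19.2%, 19.4% and 18.2%. The lower JUN share and the higher IER2 share of the FaDu cinobufotalin library were thus present in its other cells too. Across all cells of a library, the 10 pairs of the 5 genes had Pearson correlations of CPM of 0.38 to 0.63 (6954 cells), 0.42 to 0.70 (4657 cells) and 0.42 to 0.64 (5979 cells). JUN with FOS was the highest pair in each library. Cells of 1 library share a denominator and a range of depths; with every cell thinned to 5000 UMIs the correlations were 0.25 to 0.52, 0.22 to 0.55 and 0.22 to 0.48.

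Between libraries, the summed level of the 5 genes was 4240.4, 4547 and 2388 CPM in IEG-high cells, against 1047, 1113 and 472 CPM in other cells. With 1 limit for all libraries, 2548 CPM (the 90th percentile of all 17590 cells), 12.8% (12.02 to 13.6), 14.6% (13.6 to 15.6) and 3.16% (2.73 to 3.64) of cells lay above it. The FaDu cinobufotalin library was the lowest in both readings, and the difference is one between 3 single libraries. With cells thinned to 5000 UMIs the shares above a common limit were 14.2%, 16.0% and 3.68%.

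Beyond the rule, 509 of 8126 genes with a mean of at least 10 CPM (6.26%) were at least 1.5-fold higher in IEG-high cells in all 3 libraries, and only 2, ZNF114 and SLC27A5, were at least 1.5-fold lower in all 3 (0.0246%). SLC27A5, a bile acid and fatty acyl-CoA ligase, is named here after its values were seen. Per library, 1133 (13.9%), 1124 (13.8%) and 865 (10.6%) genes were higher, and 191 (2.35%), 330 (4.06%) and 2 (0.0246%) were lower. Among cells with MALAT1 at 0.1% of UMIs or more, 42 genes were lower in the FaDu cinobufotalin library and 13 in all 3. The median log2 ratio over all 8126 genes was 0.19, 0.14 and 0.18, so a typical gene had a slightly larger share of the UMIs in IEG-high cells, beside the smaller share of ribosomal protein genes given above. Of the 509 genes, 63.7% were also called when cells were chosen within 10 bins of MALAT1 share, and 78.4% when chosen within 10 bins of depth.

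Of the 12 genes with the highest ratios, GADD45B, a stress sensor that binds MAP kinase kinases, led at 449.7, 590.0 and 209.8 CPM in IEG-high cells, against 75.8, 90.8 and 34.02 CPM in other cells (log2 ratio 2.57, 2.70 and 2.62, with counting intervals of 2.52 to 2.62, 2.66 to 2.74 and 2.56 to 2.69). Its relative GADD45A, induced by DNA damage, had 618, 847 and 537 CPM in IEG-high cells, against 177, 207 and 147 CPM in other cells (1.81, 2.03 and 1.87). DDIT3, which encodes CHOP, the transcription factor of prolonged endoplasmic reticulum and amino acid stress, had 506, 646 and 228 CPM in IEG-high cells, against 103, 112 and 42.3 CPM in other cells (2.30, 2.53 and 2.43). For these 3 genes, the IEG-high value exceeded the value in other cells in each library by more than 3-fold. TXNIP, the inhibitor of thioredoxin that also limits glucose uptake, had 524, 540.1 and 76.03 CPM in IEG-high cells, against 137, 127 and 12.6 CPM in other cells (1.94, 2.09 and 2.59). Its ratio was highest in the FaDu cinobufotalin library, where its level was lowest. SNHG12, a host transcript of small nucleolar RNAs, had 105, 119 and 71.6 CPM in IEG-high cells, against 24.99, 25.9 and 18.6 CPM in other cells (2.07, 2.21 and 1.95); it overlaps TRNAU1AP on the opposite strand, and the sources used here do not say whether the counting used strand.

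RRAD, a Ras-related GTPase, gave log2 ratios of 2.17, 2.15 and 1.84, and ARC, an immediate early gene best known from neurons, 1.70, 1.83 and 2.27. ADM, the peptide hormone adrenomedullin, gave 1.60, 1.75 and 2.01, and ID2, an inhibitor of helix-loop-helix factors, 1.58, 1.66 and 2.38. IER5L, a relative of the immediate early gene IER5, gave 1.64, 1.71 and 1.55, ABTB2, an ankyrin repeat and BTB domain protein, 1.58, 1.55 and 1.61, and FBXO32, the ubiquitin ligase subunit atrogin-1, 1.61, 1.72 and 1.52. All 12 were at least 1.5-fold higher in all 3 libraries under each of the 18 other choices of cells or denominators, including matching on depth and on MALAT1. Of all 63 named genes called higher in all 3 libraries, 41 were called under each of the 18, and 22 lost the call under at least 1.

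**Figure D2:**
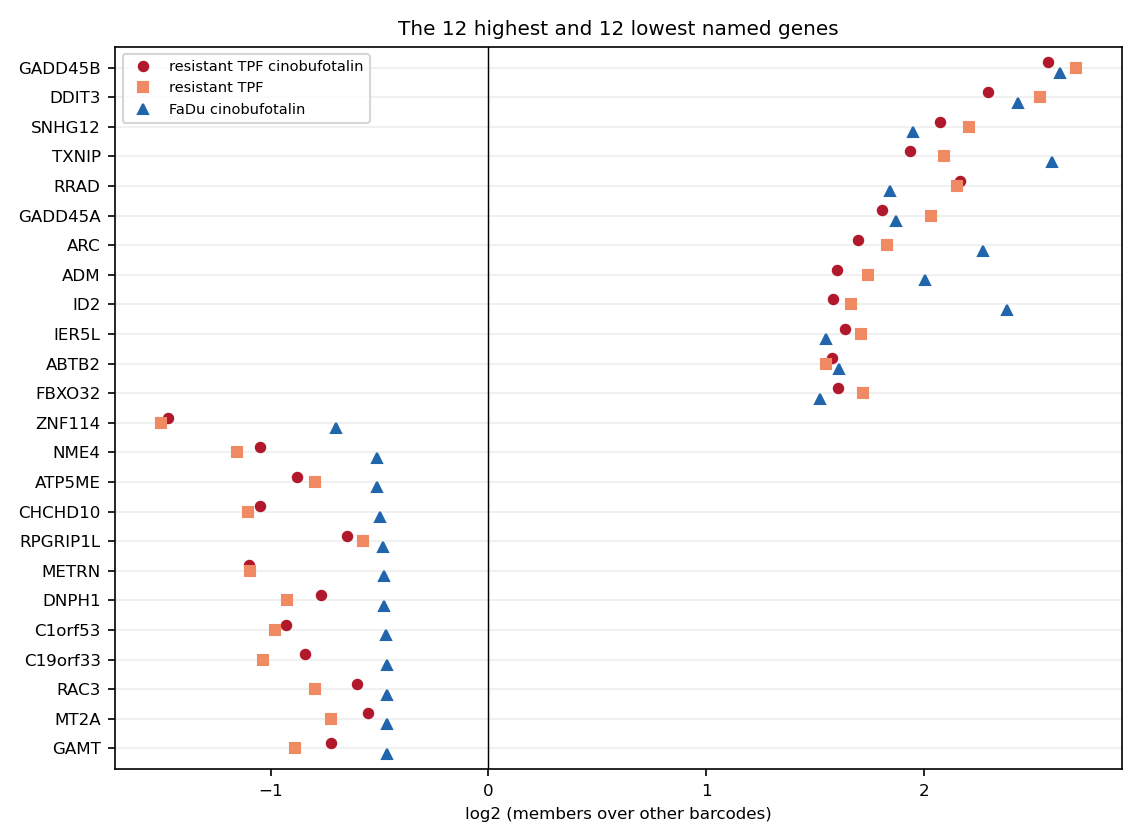
Log2 ratio of IEG-high over other cells for the 12 highest and 12 lowest named genes, 1 symbol per library. The highest run from GADD45B (2.57, 2.70 and 2.62) downwards, and among the lowest the FaDu cinobufotalin library lies nearer to 0 than both resistant libraries.

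Apart from MALAT1, the levels given here were graded across each library. From the lowest to the highest decile of cells by the rule value, DDIT3 ran from 45.9 to 506, 48.7 to 646 and 25.7 to 228 CPM in the 3 libraries. TXNIP ran from 47.3 to 526, 43.9 to 540.1 and 6.03 to 76.0 CPM, and CXCL2 from 92.6 to 361, 84.2 to 357 and 56.9 to 421 CPM. In the ninth decile, just outside the IEG-high cells, DDIT3 was at 261, 288 and 79.0 CPM. GAPDH, the glycolytic enzyme, ran the other way, from 5798 to 3321, 5516 to 3295 and 8186 to 7167 CPM, and COX7C, a subunit of cytochrome c oxidase, from 1052 to 505, 866 to 410.4 and 958 to 716 CPM.

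**Figure D3:**
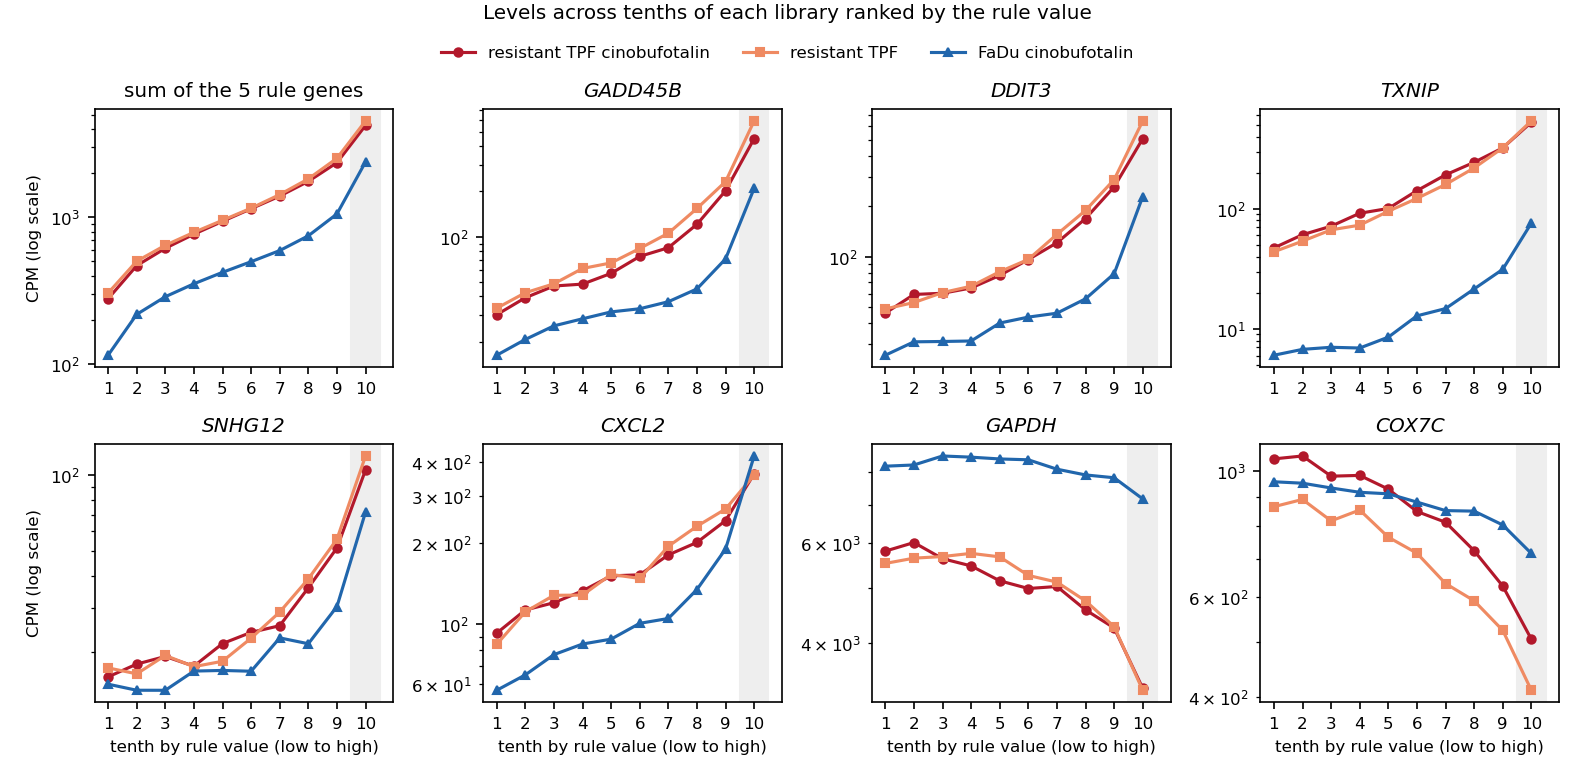
CPM (log axis) of the 5 rule genes together and of 7 other genes in deciles of each library ranked by the rule value, from low to high. The shaded decile (696, 466 and 598 cells) holds the IEG-high cells and, in the resistant TPF cinobufotalin library, 1 cell more; DDIT3 reaches 506, 646 and 228 CPM there, and COX7C 505, 410.4 and 716 CPM.

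Other members of the AP-1 and EGR families were partly elevated. Of 13 measured genes, 6 were at least 1.5-fold higher in all 3 libraries and none lower in all 3, with a list median log2 ratio of 0.33, 0.49 and 0.60. Over all 10303 genes with a mean of at least 5 CPM the share higher in all 3 was 7.37%, the share lower in all 3 was 0.0485% and the median 0.21, 0.16 and 0.21. These all-gene values are the background for every list below. EGR2 had 29.7, 29.7 and 24.97 CPM in IEG-high cells, against 11.95, 14.8 and 9.94 CPM in other cells (1.31, 1.01 and 1.33). EGR4 had 61.8, 66.1 and 44.8 CPM in IEG-high cells, against 28.4, 32.9 and 18.9 CPM in other cells (1.12, 1.01 and 1.25). Both are zinc finger relatives of EGR1, and both stood above other cells in each library. JUNB, an AP-1 subunit that can oppose JUN, had 178, 242 and 229.5 CPM in IEG-high cells, against 75.2, 105 and 101 CPM in other cells (1.24, 1.21 and 1.19). JUND, the most constitutive JUN relative, had 341, 368 and 274 CPM in IEG-high cells, against 176, 194 and 171 CPM in other cells (0.95, 0.92 and 0.68). JUNB overlaps HOOK2. Among 30 further immediate early genes, 14 were higher in all 3 libraries (median 0.64, 0.61 and 0.76). They included BTG2, an antiproliferative mRNA deadenylation cofactor (1.64, 1.40 and 1.49), and ZFP36, which binds AU-rich elements and speeds mRNA decay (1.28, 1.29 and 1.70). MYC, an immediate early gene named after its values were seen, was at 115, 113 and 190.0 CPM in IEG-high cells, against 112, 119.7 and 184 CPM in other cells (0.04, -0.08 and 0.05).

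Feedback inhibitors of ERK signalling were elevated in part, with 5 of 14 higher in all 3 libraries (median 0.47, 0.37 and 0.58). DUSP1, the phosphatase that inactivates MAP kinases in the nucleus, had 464, 534 and 417 CPM in IEG-high cells, against 166, 204 and 121 CPM in other cells (1.49, 1.39 and 1.78). DUSP2, another nuclear MAP kinase phosphatase, had 68.5, 79.2 and 30.98 CPM in IEG-high cells, against 17.2, 20.1 and 8.42 CPM in other cells (1.99, 1.98 and 1.88). PHLDA1, a pleckstrin homology protein induced by growth factors, had 360.2, 446 and 316 CPM in IEG-high cells, against 166, 209 and 156 CPM in other cells (1.12, 1.09 and 1.02). For all 3 genes IEG-high cells had at least 2-fold the level of other cells in each library. The EGFR family and its ligands, which lie upstream of ERK, had none of 9 genes higher in all 3 libraries (median -0.13, -0.32 and 0.16). AREG, the ligand amphiregulin, had 1598, 1527 and 2213 CPM in IEG-high cells, against 2476, 2373 and 2485 CPM in other cells (-0.63, -0.64 and -0.17). EREG, the ligand epiregulin, had 199.5, 187 and 189.5 CPM in IEG-high cells, against 270.3, 286 and 188 CPM in other cells (-0.44, -0.61 and 0.01). Both ligands were thus below other cells in the resistant libraries and nearer to them in the FaDu cinobufotalin library, where the sign of each changed in at least 1 alternative choice of cells.

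Targets of NF-kB and inflammatory cytokines were among the lists with the largest shift, with 11 of 22 genes higher in all 3 libraries (median 0.68, 0.63 and 0.88). CSF2, the granulocyte-macrophage growth factor GM-CSF, had 111, 144 and 39.8 CPM in IEG-high cells, against 30.3, 30.4 and 17.4 CPM in other cells (1.87, 2.25 and 1.19). The neutrophil-attracting chemokine CXCL2 had 362, 357 and 421 CPM in IEG-high cells, against 152, 159.6 and 99.5 CPM in other cells (1.25, 1.16 and 2.08), and its neighbour CXCL3 gave 1.27, 1.38 and 1.40. CCL20, a chemokine for CCR6-bearing lymphocytes and dendritic cells, had 328, 357 and 256 CPM in IEG-high cells, against 152, 149 and 107 CPM in other cells (1.11, 1.26 and 1.26). All 4 cytokines were higher in IEG-high cells of each library. In the interferon list 4 of 37 genes were higher in all 3 libraries (median 0.36, 0.18 and 0.41), near the 7.37% of all genes. IFNL1, a type III interferon of epithelia, had 77.9, 147 and 163 CPM in IEG-high cells, against 60.3, 58.7 and 63.3 CPM in other cells (0.37, 1.32 and 1.36). It passed 1.5-fold in the resistant TPF and FaDu cinobufotalin libraries and not in the resistant TPF cinobufotalin library. Under 6 of the 18 other choices of cells or denominators it passed in all 3 libraries. Over these choices its value ran from 0.11 to 0.91 in the resistant TPF cinobufotalin library. It ran from 0.99 to 3.32 in the resistant TPF library and from 0.64 to 1.70 in the FaDu cinobufotalin library. Whether it passed 1.5-fold in the resistant TPF cinobufotalin library thus depended on the choice, while the ranges of both resistant libraries did not overlap. The difference between libraries was not tested.

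**Figure D4:**
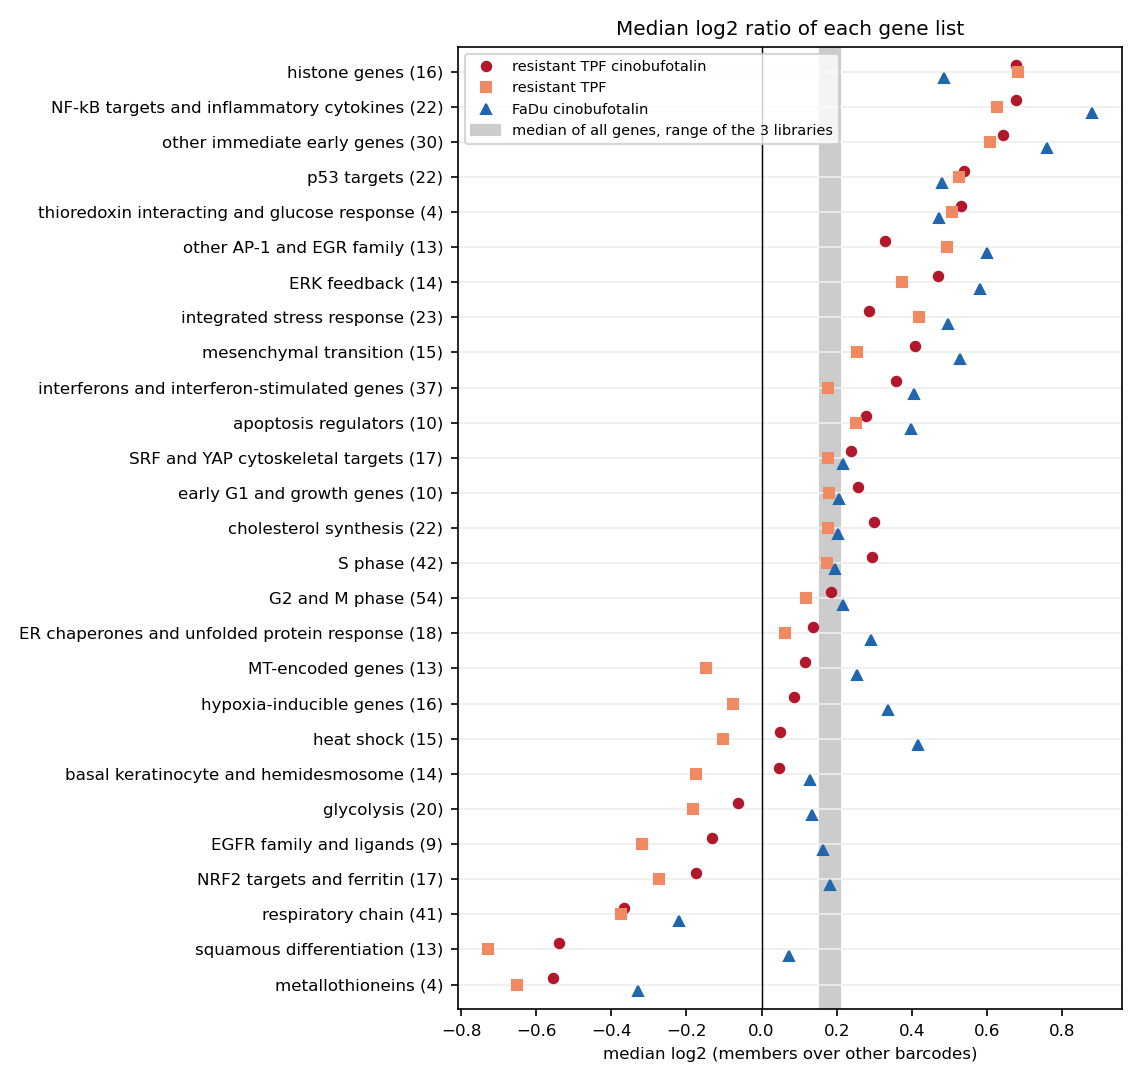
Median log2 ratio of IEG-high over other cells for each of 27 gene lists (number of measured genes in brackets), 1 symbol per library, with the range of the all-gene median (0.16 to 0.21) as a grey band. Histone genes, NF-kB targets and further immediate early genes lie highest, and metallothioneins, squamous differentiation genes and respiratory chain subunits lowest.

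The stress response lists differed in how many of their genes were higher, beside 7.37% of all genes. In the integrated stress response, which raises ATF4 when translation initiation is curbed, 7 of 23 genes were higher in all 3 libraries (median 0.28, 0.42 and 0.50). Besides DDIT3 these included DDIT4, an inhibitor of mTORC1 (1.01, 1.41 and 1.81), SLC3A2, the heavy chain of amino acid exchangers (0.97, 1.18 and 0.82), and PPP1R15A, the phosphatase subunit that ends the response (0.84, 0.87 and 1.04). Of 18 endoplasmic reticulum chaperone and unfolded protein response genes 3 were higher in all 3 libraries, and the list median was below that of all genes in both resistant libraries (0.14, 0.06 and 0.29): HERPUD1, an ER degradation factor (0.99, 1.08 and 0.96), XBP1, a transcription factor of the response (0.78, 0.88 and 1.03), and HSPA5, the chaperone BiP (0.68, 0.71 and 0.82; called so under 15 of the 18 other choices). Of 15 heat shock genes 1 was, near the 7.37% of all genes (median 0.05, -0.10 and 0.42). This was HSPA1A, which is nearly identical to HSPA1B, at 0.72, 0.63 and 1.12, called under 16 of the 18, and HSPE1, the mitochondrial cochaperonin, which overlaps HSPD1, -0.65, -0.77 and -0.38. Of 22 p53 targets 8 were higher in all 3 libraries (median 0.54, 0.52 and 0.48). They were led by GADD45B and GADD45A, which other stress pathways also induce, followed by the kinase PLK2 (0.88, 0.84 and 1.43). AEN, a nuclease, gave 0.88, 1.14 and 0.60, and its call in all 3 libraries held under only 2 of the 18 other choices, with 0.42 to 0.79 in the FaDu cinobufotalin library. CDKN1A, the cell cycle inhibitor p21 and a classical p53 target, named after its values were seen, had 343, 338 and 347 CPM in IEG-high cells, against 314, 317 and 275 CPM in other cells (0.13, 0.09 and 0.33).

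SNAI1, the transcription factor that represses E-cadherin in mesenchymal transition, had 51.3, 75.9 and 50.1 CPM in IEG-high cells, against 13.1, 19.5 and 9.87 CPM in other cells (1.97, 1.96 and 2.34). Of the 15 measured genes of the mesenchymal list 3 were higher in all 3 libraries (median 0.41, 0.25 and 0.53). Among them was MMP3, a matrix metalloproteinase (0.84, 0.80 and 0.73), whose call held under 16 of the 18 other choices. Its value among G1 cells of the resistant TPF library, a choice that rests on few cells, was -0.72. Of 17 SRF and YAP cytoskeletal targets 2 were higher in all 3 libraries, near the 7.37% of all genes. The list median (0.24, 0.18 and 0.22) was also near that of all genes (0.21, 0.16 and 0.21). The 2 genes were TUFT1 (0.97, 0.90 and 1.14) and FILIP1L (0.77, 0.72 and 0.78, called under 15 of the 18). TUFT1 overlaps AL365436.1 on the same strand, and FILIP1L overlaps CMSS1.

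Of the 10 genes of the early G1 and growth list 3 were higher in all 3 libraries (median 0.26, 0.18 and 0.21), each an inhibitor of cyclin-dependent kinases. CDKN1C, the inhibitor p57, had 54.99, 64.8 and 35.5 CPM in IEG-high cells, against 17.02, 21.1 and 12.2 CPM in other cells (1.69, 1.62 and 1.54). CDKN1B, p27, gave 1.05, 1.02 and 1.26, and CDKN2B, p15, 1.03, 0.85 and 1.25. CDKN2B overlaps CDKN2B-AS1 and AL359922.1. Of 16 histone genes 8 were higher in all 3 libraries and 2 were below 0 in all 3 (median 0.68, 0.68 and 0.49, and 0.58, 0.64 and 0.46 with cells matched on MALAT1). HIST1H4H had 72.8, 56.9 and 31.05 CPM in IEG-high cells, against 21.4, 21.1 and 6.98 CPM in other cells (1.76, 1.43 and 2.15), HIST1H2BD gave 1.27, 0.94 and 1.43 and HIST1H2AC 1.08, 0.91 and 1.37. Histone genes have close copies, and the sources used here do not say how reads were divided among them. The S phase list had a median of 0.29, 0.17 and 0.20 with 1 of 42 genes higher in all 3 libraries, and the G2 and M phase list 0.18, 0.12 and 0.22 with 1 of 54, GAS2L3 (1.04, 1.11 and 1.00). Both medians lie near that of all genes (0.21, 0.16 and 0.21). The highest decile of cells by summed S phase genes nevertheless held 20.9%, 21.2% and 14.9% of IEG-high cells, beside 10% of all cells by construction. For G2 and M phase genes these shares were 13.4%, 15.7% and 12.4%. With each cell thinned to 5000 UMIs, G1 was called for 9.21% (7.16 to 11.6), 12.2% (9.40 to 15.6) and 16.9% (14.0 to 20.1) of IEG-high cells, against 10.8%, 13.2% and 20.1% of other cells. S was called for 36.5%, 38.6% and 21.1% of IEG-high cells, against 37.7%, 37.1% and 21.0% of other cells. G2 or M was called for 54.2%, 49.1% and 62.0% of IEG-high cells, against 51.5%, 49.7% and 58.9% of other cells. In these thinned calls the G1 and the G2 or M shares of other cells lay within the counting intervals of IEG-high cells. With IEG-high cells chosen within bins of depth they did not in the FaDu cinobufotalin library, where G1 was called for 16.5% (13.6 to 19.7) of IEG-high cells, against 20.2% of other cells, and G2 or M for 63.2% (59.2 to 67.04), against 58.8%. Without thinning, G1 was called for 10.8%, 12.7% and 15.7% of IEG-high cells, against 10.2%, 12.7% and 15.3% of other cells. G2 or M was then called for 50.9%, 48.7% and 70.2% of IEG-high cells, against 58.9%, 52.9% and 71.3% of other cells, and in the resistant TPF cinobufotalin library the share of other cells lay above the counting interval of IEG-high cells (47.1 to 54.7). S was then called for 38.3% (34.6 to 42.0), 38.6% and 14.0% of IEG-high cells, against 30.9%, 34.4% and 13.4% of other cells. In the resistant TPF cinobufotalin library the S share of other cells lay below that interval.

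Most genes of oxidative phosphorylation had ratios below 0. Of 41 measured respiratory chain and ATP synthase subunits, 34 had a ratio below 0 in all 3 libraries, beside 15.6% of all genes with a mean of at least 5 CPM. The list median was -0.37, -0.38 and -0.22, and -0.24, -0.27 and -0.17 with cells matched on MALAT1. None was at least 1.5-fold lower in all 3 libraries, while 10, 10 and 0 were per library, beside 2.44%, 4.24% and 0.0971% of all genes. COX7C had 506, 410.4 and 716 CPM in IEG-high cells, against 899.6, 743 and 897 CPM in other cells (-0.83, -0.86 and -0.32), COX5B gave -0.82, -0.88 and -0.38, UQCR10, a complex III subunit, -0.83, -0.81 and -0.37, and ATP5ME, an ATP synthase subunit, -0.88, -0.80 and -0.51. The 13 genes encoded by mitochondrial DNA had medians of 0.12, -0.15 and 0.25, and MT-CO1 gave 0.26, -0.01 and 0.43. The 4 metallothioneins were below other cells in all 3 libraries (median -0.55, -0.65 and -0.33, and -0.39, -0.58 and -0.27 with cells matched on MALAT1), with MT2A, a zinc-binding protein, at 5888, 4502 and 8565 CPM in IEG-high cells, against 8626, 7422 and 11813 CPM in other cells (-0.55, -0.72 and -0.46); none was 1.5-fold lower in all 3, and MT1X was nearest to 0 (-0.06, -0.08 and -0.22). TXN, thioredoxin, the protein that TXNIP binds, had 1818, 1454 and 1958 CPM in IEG-high cells, against 2677, 2139.9 and 2550.2 CPM in other cells (-0.56, -0.56 and -0.38), while ARRDC4, a relative of TXNIP, gave 1.15, 1.19 and 0.98. Of 20 glycolysis genes 1 was higher in all 3 libraries (median -0.06, -0.18 and 0.13), the lactate transporter SLC16A1, which overlaps SLC16A1-AS1. SLC16A1 gave 0.90, 0.70 and 0.60 and was called under 11 of the 18 other choices. GAPDH gave -0.66, -0.69 and -0.20.

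Besides ATP5ME and MT2A, the 12 lowest genes were ZNF114, a zinc finger protein, NME4, a mitochondrial nucleoside diphosphate kinase, CHCHD10, a mitochondrial intermembrane space protein, RPGRIP1L, a ciliary protein that overlaps FTO, METRN, meteorin, DNPH1, a nucleotide hydrolase, C1orf53, C19orf33, RAC3, a small GTPase, and GAMT, an enzyme of creatine synthesis. ZNF114 had 13.4, 10.4 and 26.1 CPM in IEG-high cells, against 37.2, 29.7 and 42.6 CPM in other cells (-1.47, -1.50 and -0.70). NME4 had 219, 237 and 425 CPM in IEG-high cells, against 453, 528 and 607 CPM in other cells (-1.05, -1.15 and -0.51). In the FaDu cinobufotalin library only ZNF114 of the 12 was more than 1.5-fold lower.

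Squamous differentiation genes were lower in IEG-high cells of both resistant libraries and mixed in the FaDu cinobufotalin library. Of 13 measured genes 6, 8 and 0 were at least 1.5-fold lower per library (median -0.54, -0.73 and 0.07), beside 2.44%, 4.24% and 0.0971% of all genes with a mean of at least 5 CPM. SPRR1B, a precursor of the cornified envelope, had 5.17, 4.44 and 12.3 CPM in IEG-high cells, against 17.00, 23.1 and 14.99 CPM in other cells (-1.71, -2.36 and -0.28). KRT6A, a keratin of stressed and wounded epithelium, had 5.85, 5.45 and 32.6 CPM in IEG-high cells, against 16.8, 25.4 and 33.8 CPM in other cells (-1.52, -2.21 and -0.05). LY6D, a surface protein of differentiating keratinocytes, had 5.59, 3.58 and 32.98 CPM in IEG-high cells, against 14.4, 15.3 and 40.2 CPM in other cells (-1.36, -2.08 and -0.28). In both resistant libraries all 3 genes were at least 1.5-fold lower in IEG-high cells, and in the FaDu cinobufotalin library none was. S100A9, a calcium-binding alarmin, had 8.56, 5.92 and 31.7 CPM in IEG-high cells, against 22.7, 29.7 and 19.6 CPM in other cells (-1.40, -2.32 and 0.70, with counting intervals of -1.71 to -1.12, -2.68 to -2.00 and 0.55 to 0.84). In the FaDu cinobufotalin library its sign changed under 7 of 18 alternative choices of cells, between -1.12 and 2.27, and the signs of SPRR1B and KRT6A changed under 2 and 3; in both resistant libraries these 4 genes stayed below 0 under all 18. The basal layer keratin KRT15 gave -0.86, -1.74 and -0.29 and KRT5 -0.45, -0.75 and 0.04.

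**Figure D5:**
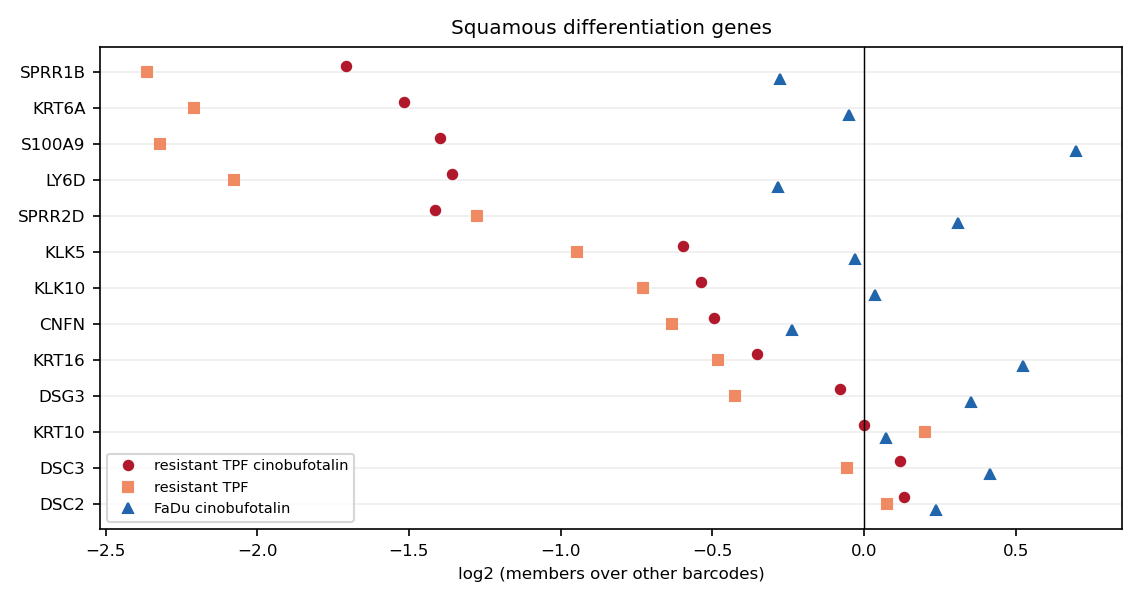
Log2 ratio of IEG-high over other cells for 13 squamous differentiation genes, 1 symbol per library. SPRR1B, KRT6A, S100A9 and LY6D lie below -1 in both resistant libraries and between -0.28 and 0.70 in the FaDu cinobufotalin library.

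Single genes and summed lists overlapped with the IEG-high cells to different degrees. Of IEG-high cells, 45.9%, 50.6% and 44.6% were also in the highest decile of their library by DDIT3 share, and 43.6%, 44.0% and 31.4% by TXNIP share; by construction the highest decile holds 10% of all cells. For the summed integrated stress response list, which holds DDIT3, the shares were lower, 25.8%, 28.8% and 35.1%. For the summed thioredoxin interacting and glucose response list, which holds TXNIP, they were 2.73%, 4.29% and 4.35%, below 10%. For summed p53 targets the shares were 45.9%, 52.6% and 48.7%, and for ERK feedback genes 42.2%, 41.8% and 40.3%. For NF-kB targets and cytokines they were 25.8%, 27.0% and 31.6%. Respiratory chain genes put 1.29%, 0.644% and 3.01% of IEG-high cells into their highest decile, and glycolysis genes 2.73%, 1.502% and 9.70%. For DDIT3 the log2 ratios over other cells were 2.39, 2.61 and 2.26 in cells led by FOS and 2.14, 2.34 and 2.43 in cells led by JUN. For CXCL2 they were 1.54, 1.31 and 2.29 in cells led by FOS and 0.84, 1.06 and 1.57 in cells led by JUN, a contrast that uses the genes of the rule and was not tested.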

How the data were processed

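Single-cell 3' RNA libraries (10x chemistry 3.1) of 3 groups, 1 library each, were read from the deposited matrices, whose values are the authors' raw UMI counts for each gene and barcode. The submitters' processing notes name Cell Ranger 7.0 and the build hg38. The sources used here do not give the annotation or say whether introns and strand were used. GENCODE release 29 held all 58735 feature IDs and gave their positions.

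Barcodes with at least 5000 UMIs and at most 20% mitochondrial UMIs were kept (133274366, 134708431 and 165480083 UMIs in the order of the report, a median of 18514, 28368 and 24772 per cell), and the top 10% of each library by the summed UMIs of 5 genes over all UMIs were the IEG-high cells. UMIs were summed over cells, scaled to CPM and compared as log2 ratios after adding 0.5 to each count, with pandas 2.3.3, scipy 1.17.1 and numpy 2.4.6 in Python 3.11.15. Genes were counted from a mean of 10 CPM and list genes from 5 CPM, at 1.5-fold. Phases were called with scanpy 1.11.5 after thinning each cell to 5000 UMIs. Doublets were not removed, and cells over 2 times the median UMIs were left out as an alternative. Those cells were 0.144%, 0.644% and 2.01% of IEG-high cells, against 1.21%, 0.716% and 5.87% of other cells. No correction for free RNA was made, as empty barcodes were not analysed here.

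The members and gene lists were chosen with earlier results of these data known. Named genes were the 5 rule genes, the 12 highest and 12 lowest by the ratio nearest to 0 among genes of 1 direction from a mean of 20 CPM (without genes that are mitochondrial, ribosomal or named for clones), and up to 4 genes per list with the largest median ratio. The counting was tested on simulated counts for 8131 genes: in every library 50 of 50 genes simulated at 2.5-fold were called and 0 of 7931 unchanged genes. These were Poisson counts drawn around the summed UMIs of each library, with no variation between cells and no choice of cells by their expression. They check the calculation only and give no rate of wrong calls among the genes called here. Alternatives were other shares of cells, UMI, mitochondrial, CPM and fold limits, choice within bins of depth or of MALAT1, G1 cells only, equal weight per cell, thinning, other denominators, a random 50% of UMIs and the rule without each gene. Keeping only cells with MALAT1 at 0.1% or more and dropping those over 2 times the median UMIs were chosen after seeing the data. A few named results are not reported here.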

Additional observations from a re-analysis of the deposited data

Results flagged for a closer look

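S100A9, the alarmin of the squamous differentiation list, moved in opposite directions. Its log2 ratio of IEG-high over other cells was -1.40 in the resistant TPF cinobufotalin library and -2.32 in the resistant TPF library, against 0.70 in the FaDu cinobufotalin library. The difference between these libraries was not tested, and the FaDu value changed sign under 7 of 18 alternative choices of cells.

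The 5 immediate early genes were also present in barcodes that the rule left out. In barcodes under 5000 UMIs their summed level was 1919 CPM in the resistant TPF cinobufotalin library, 1736 CPM in the resistant TPF library and 1179.8 CPM in the FaDu cinobufotalin library. In barcodes over 20% mitochondrial UMIs it was 1843, 1515 and 994.7 CPM in the same order. The cells that met both limits had 1329.7, 1441 and 640 CPM, below the barcodes left out in each library.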

How the results depend on the processing

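IEG-high and other cells were compared within each library, each group had 1 library, and no result came from a test. Counts of genes at least 1.5-fold higher or lower moved by over 1.5 times as follows, given for the resistant TPF cinobufotalin, resistant TPF and FaDu cinobufotalin libraries where 3 numbers stand together. With the top 5% of cells, 1389 genes were higher in the FaDu cinobufotalin library, 399, 504 and 26 were lower per library and 17 in all 3. With the top 20%, 305 were higher in all 3 and 516 in the FaDu cinobufotalin library, while 104, 158 and 1 were lower per library and 0 in all 3. Matched on MALAT1, 336 were higher in all 3 and 534 in the FaDu cinobufotalin library, and 122 were lower in the resistant TPF cinobufotalin library, 1 in the FaDu cinobufotalin library and 1 in all 3. Among G1 cells, 1850.0 and 1733 were higher in the 2 resistant libraries, 468, 682 and 92 were lower per library and 16 in all 3. There the top 10% was chosen again within the cells called G1, which were few. These were 64, 57 and 101 of the IEG-high cells and 678, 552 and 1082 of other cells. Genes lower in the FaDu cinobufotalin library and in all 3 numbered 1 and 1 with values from 5000 UMIs, 4 and 4 without EGR1 in the rule, 1 and 1 without ATF3, and 42 and 13 with MALAT1 at 0.1% or more; measured on the UMIs not used to choose, 6 were lower in the FaDu cinobufotalin library. From 1 CPM, 2992, 2841 and 2956 were higher per library and 1432 in all 3, and 545, 834 and 90 were lower and 23 in all 3. From 50 CPM, 228, 240.0 and 174 were higher and 109 in all 3, and 111, 160.0 and 0 were lower and 0 in all 3. Both CPM limits also change the number of genes counted, which is not given here. These counts therefore do not show whether the share of genes moved. At 2-fold, 222, 235 and 199 were higher and 105 in all 3, and 20, 51 and 0 were lower and 0 in all 3. The cause of these moves was not tested beyond the limits themselves. FOS in the resistant TPF library gave 2.17 on a second random split of UMIs. Without thinning, 14.0% of IEG-high cells of the FaDu cinobufotalin library were called S and 70.2% G2 or M, and the share called G2 or M was then below that of other cells in that library and in the resistant TPF cinobufotalin library, in both of which it was above when thinned. Thinned to 5000 UMIs, 14.2%, 16.0% and 3.68% of cells lay above 1 common limit. The other 179 values of these results stayed within 1.5 times or within their counting interval.

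Of 2340 values of 130 named genes under 18 settings, each the median over the 3 libraries, 1766 stayed within their counting interval, 574 moved and 0 of the called genes changed sign; in single libraries 4 called genes did, under at least 1 setting. For 27 lists 142 of 486 medians stayed and 344 moved, and in single libraries 21 of 1458 list medians changed sign, in 8 lists. Between 58.5% (top 20%) and 96.5% (top 5%) of the 509 genes higher in all 3 libraries were called under each choice of cells or denominator. Depth limited single cells: a median IEG-high cell had 68, 112 and 48 UMIs of the 5 genes, against 17, 27 and 10 in other cells, so membership near the limit rests on few UMIs. Doublets, free RNA and the single library per group limit every value.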

Other observations

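Transcripts that host small nucleolar RNAs, a list chosen after its values were seen, were partly higher in IEG-high cells. Of 20 measured, 7 were at least 1.5-fold higher in all 3 libraries, while the list median was 0.10, 0.15 and 0.18 in the resistant TPF cinobufotalin, resistant TPF and FaDu cinobufotalin libraries. ZFAS1 had 1323, 1364 and 688 CPM in IEG-high cells, against 539, 485 and 315 CPM in other cells (log2 ratio 1.30, 1.49 and 1.12). GAS5, a growth arrest transcript, had 503, 528 and 179 CPM in IEG-high cells, against 216, 202 and 80.9 CPM in other cells (1.22, 1.39 and 1.15). SNHG15 had 394, 390.0 and 186 CPM in IEG-high cells, against 134, 106 and 90.1 CPM in other cells (1.55, 1.88 and 1.04).

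Further lists are given in the same library order, beside 7.37% of all genes with a mean of at least 5 CPM that were higher in all 3 libraries. Of 22 cholesterol synthesis genes 3 were higher in all 3 libraries (median 0.30, 0.18 and 0.20), with MVK, mevalonate kinase, which overlaps MMAB, at 1.27, 1.47 and 0.70 (called under 14 of 18 other choices of cells) and HMGCS1, an early enzyme of the pathway, at 0.86, 0.59 and 0.74 (7 of 18). Of 17 NRF2 targets 2 were (median -0.18, -0.27 and 0.18), OSGIN1 (1.35, 1.31 and 1.29) and HMOX1, heme oxygenase (0.81, 0.65 and 0.77; 16 of 18). Of 16 hypoxia-inducible genes 3 were (median 0.09, -0.07 and 0.34), ADM, PFKFB3 and ANGPTL4. PFKFB3, a glycolytic regulator, gave 0.93, 0.96 and 0.59 (10 of 18). ANGPTL4, a lipase inhibitor that overlaps RAB11B-AS1, gave 0.66, 0.74 and 0.73 (12 of 18, and as low as 0.16 in the resistant TPF library). Of 10 apoptosis regulators 3 were (median 0.28, 0.25 and 0.40), the survival protein BCL2A1 (1.12, 1.05 and 0.67; 14 of 18) and the death-promoting HRK (1.01, 1.11 and 0.70) and BAK1 (0.62, 0.68 and 0.66; 12 of 18).

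The 509 genes higher in all 3 libraries held more short genes than the 8126 counted: 16.7% spanned under 5 kb, against 9.81% of all counted genes, and 10.2% had at most 2 exons, against 4.68%. Their median genomic span of 29474 bases was nevertheless close to the 33161 bases of all counted genes. Histone genes made up 12 of the 509, against 29 of the 8126. The 170 genes lower in both resistant libraries were shorter, with a median genomic span of 8513 bases, against 33161 bases over all counted genes, and more abundant, with a median of 77.8 CPM, against 32.7 CPM. Of these 170, 35.3% spanned under 5 kb, so short genes were more frequent among the lower than among the higher genes. These are counts of this choice of cells, with no test.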
